A study of Mus musculus with 24 samples.

Results

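The genes described here are the matrix proteases of the MMP, ADAM and ADAMTS families and their inhibitors, the TIMPs, measured as transcripts in 3 mouse tissues, namely heart, bone and white fat. They were taken by gene symbol alone, as every gene on the array whose symbol is Mmp, Adam, Adamts or Timp followed by a digit, with the brightest probe standing for a gene. This gave 67 genes of the 16593 named on the array, and 101 of its 25697 probes. The 67 genes comprise 20 Mmp, 29 Adam, 14 Adamts and 4 Timp genes. The study compared male C3HeB/FeJ mice heterozygous for an ENU-induced allele of the endothelin receptor gene Ednra (Y129F, with the allele field of the labels spelled Endra) with wild-type males, all 117 days old. Each of the 6 groups, 2 genotypes in 3 tissues, has 4 arrays. Hearts came from 8 animals of their own, while bone and white adipose tissue came from the same animals as each other, under 7 mouse numbers, since 1 number stands under both genotypes (wild-type replicate 3 and heterozygous replicate 4). In every comparison of heart with bone or white adipose tissue, tissue and set of animals therefore cannot be told apart. Ednra itself was not analysed here, so the arrays give no check of genotype, and the labels do not name the bone or the fat depot taken.

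Matrix metalloproteases cut collagens, elastin and other matrix proteins, and most are made as inactive proenzymes that are activated outside the cell or at its surface. ADAM proteins sit in the cell membrane, where the catalytic ones shed other membrane proteins, and ADAMTS proteins are secreted enzymes that cut proteoglycans and process procollagen. The TIMPs bind the active sites of these enzymes and block them. Bone turnover relies on collagenases and gelatinases, and expanding fat and the heart valves remodel their matrix with members of the same families.

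Probes detected per array (detection p under 0.05) numbered 9931 to 13919. In heart, wild-type array 4 stood apart with 9931 detected probes against 11467 to 12143 on the other heart arrays. Its mean level over the 6 endothelial markers was 7.39, against 9.21 to 9.53 on the other wild-type hearts. In white adipose tissue, heterozygous array 2 stood apart, with a mean level over the 10 neutrophil markers of 9.31 against 5.42 to 6.01 on the other 7 arrays. Its mean over the 7 osteoblast markers was 6.13 against 4.82 to 4.89, and that over the skeletal muscle markers 7.95 against 5.49 to 5.86. Each tissue expressed its defining markers: all 5 measured heart markers, 6 of 7 osteoblast markers and all 6 measured adipocyte markers were detected on every array of their tissue. The bone arrays also held all 6 skeletal muscle markers, at mean levels of 12.8 to 13.4. Mean raw intensity separated the genotypes in white adipose tissue (553 to 666 in heterozygous and 702 to 820 in wild-type arrays) and in heart (433 to 477 and 368 to 421), so that genotype and array brightness cannot be told apart in these tissues. In such bulk samples, fewer cells of a type and less RNA per cell cannot be told apart.

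A gene was taken as measured in a tissue when its probe was detected on at least 4 of the 8 arrays. By this filter 37 of the 67 genes were measured in at least 1 tissue: 14 of 20 Mmp genes, 10 of 29 Adam genes, 9 of 14 Adamts genes and 4 of 4 Timp genes. The filter kept 27 genes in heart, 32 in bone and 31 in fat, with 24 in all 3 tissues, 5 in bone alone, 3 in bone and white adipose tissue, 2 in heart and white adipose tissue, 2 in white adipose tissue alone and 1, Adam11, in heart alone. Of the 30 genes left out, 19 are Adam genes, among them the sperm genes Adam2, Adam3 and Adam5, which were detected on no array. The sheddase gene Adam10 was detected on 1 array only, in bone. The 6 Mmp genes left out were Mmp7, Mmp10, Mmp1b, Mmp20, Mmp21 and Mmp24.

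Levels are log2 normalized intensities with the 24 arrays normalized together, and a level is compared between tissues for 1 probe at a time, never between genes. A gene was called different between 2 tissues when the adjusted p of limma's moderated test (Benjamini-Hochberg over 10544 genes) was under 0.05 and the log2 difference at least 1. Bone exceeded heart for 6 of the 37 measured genes and fell below it for 11, where 19% and 22% of all genes tested were called in these directions. White adipose tissue exceeded heart for 10 genes and fell below it for 5, against 15.9% and 16.1% of all genes. White adipose tissue exceeded bone for 12 genes and fell below it for 8, against 18.2% and 16.6% of all genes. In either direction the calls made up 45.9%, 40.5% and 54.1% of the 37 genes, beside 41.1%, 32% and 34.8% of all genes tested. Among genes detected in both tissues compared, bone was higher than heart for 3 and lower for 9 of 24, beside 16% and 24.7% of all such genes (40.7% in either direction). White adipose tissue was higher than heart for 7 and lower for 4 of 26, beside 14.6% and 17% (31.6% in either direction). It was higher than bone for 10 and lower for 6 of 27, beside 19.3% and 15.4% (34.7% in either direction). Medians over the 37 genes were -0.49 for bone minus heart, -0.069 for white adipose tissue minus heart and 0.19 for white adipose tissue minus bone, where all genes had medians of -0.15, -0.074 and 0.043. Scaling to the array medians moved the medians of all genes to -0.012, 0.10 and 0.069, and turned the sign of 0 of the 52 calls. Without both arrays that stood apart, 49 of the 52 calls were kept.

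Each tissue had its own set of genes called above both other tissues. These were 5 genes in bone (Mmp13, Mmp9, Mmp8, Mmp16 and Adam8), 5 in heart (Mmp3, Adamts7, Adam11, Adamts19 and Adam19) and 9 in white adipose tissue (Timp4, Mmp12, Adamts5, Adam15, Adam23, Adamts1, Timp2, Adamts4 and Adamts16). Among all genes tested, 11.2%, 10.9% and 8.61% were called highest in bone, heart and white adipose tissue. Mmp8, Mmp16, Adam11, Mmp12 and Adamts16 were detected on no array of the other tissues. They passed the filter only through the tissue where they are highest, so their differences are given as bounds below. By family, 4 of the 14 measured Mmp genes were called highest in bone, 1 in heart and 1 in white adipose tissue, with Mmp8, Mmp16 and Mmp12 among them. Of the 9 measured Adamts genes, 4 were called highest in white adipose tissue, Adamts16 among them, 2 in heart and 0 in bone. Of the 4 Timp genes, 2 were called highest in white adipose tissue and the other two in no tissue.

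**Figure D1:**
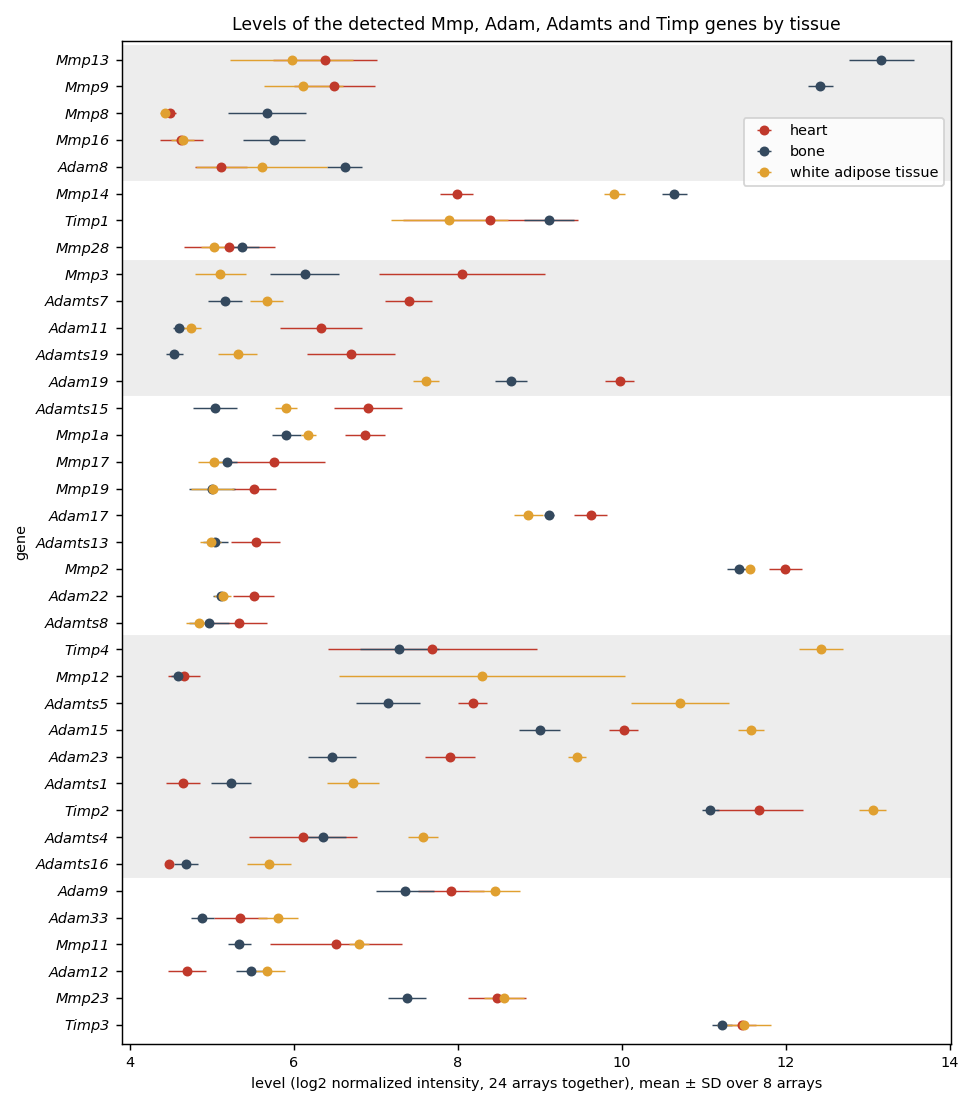
Level of each of the 37 measured genes (log2 normalized intensity, horizontal axis) in heart, bone and white adipose tissue, as mean and SD over 8 arrays; grey bands mark genes called above both other tissues. Mmp13 and Mmp9 lie far to the right in bone, at 13.2 and 12.4, and Timp4 in white adipose tissue, at 12.4; positions of different genes are not compared.

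Some of the genes that marked a tissue sit side by side in the genome. In the RefSeq annotation of GRCm38.p6, mouse chromosome 9 carries a run of Mmp genes in the order Mmp13, Mmp12, Mmp1b, Mmp3, Mmp1a, Mmp10, Mmp8, Mmp27, Mmp20 and Mmp7, with no other protein-coding gene between them. Within that run Mmp13 and Mmp8 were called highest in bone, Mmp12 in white adipose tissue and Mmp3 in heart, while Mmp1a was measured in all 3 tissues and Mmp1b, Mmp10, Mmp20 and Mmp7 passed the filter in none. The 250 bases before the outermost annotated start of these 4 genes are printed to set neighbours of unlike tissue pattern beside each other. All lie on the plus strand and were taken from RefSeq for GRCm38.p6. They are chr9:7272264-7272513 for Mmp13, chr9:7344147-7344396 for Mmp12, chr9:7445572-7445821 for Mmp3 and chr9:7558179-7558428 for Mmp8. Capitals mark matches on either strand to 3 short motifs: the AP-1 motif TGANTCA, the RUNX motif TGTGGT (read as ACCACA on the other strand) and the TATA motif TATAAA. No match overlaps another.
Mmp13: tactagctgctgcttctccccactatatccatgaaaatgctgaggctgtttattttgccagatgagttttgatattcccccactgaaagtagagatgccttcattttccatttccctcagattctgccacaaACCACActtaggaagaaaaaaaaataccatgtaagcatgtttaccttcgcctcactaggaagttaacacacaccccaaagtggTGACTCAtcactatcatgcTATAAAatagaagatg
Mmp12: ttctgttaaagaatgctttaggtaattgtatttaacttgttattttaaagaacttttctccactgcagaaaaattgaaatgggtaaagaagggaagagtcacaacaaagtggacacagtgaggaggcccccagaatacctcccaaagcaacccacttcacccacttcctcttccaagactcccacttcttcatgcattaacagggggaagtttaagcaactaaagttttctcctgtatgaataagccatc
Mmp3: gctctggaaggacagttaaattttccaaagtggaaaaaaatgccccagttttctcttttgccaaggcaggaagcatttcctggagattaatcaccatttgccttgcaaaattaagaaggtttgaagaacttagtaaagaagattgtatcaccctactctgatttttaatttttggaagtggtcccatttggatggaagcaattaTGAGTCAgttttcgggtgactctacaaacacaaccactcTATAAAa
Mmp8: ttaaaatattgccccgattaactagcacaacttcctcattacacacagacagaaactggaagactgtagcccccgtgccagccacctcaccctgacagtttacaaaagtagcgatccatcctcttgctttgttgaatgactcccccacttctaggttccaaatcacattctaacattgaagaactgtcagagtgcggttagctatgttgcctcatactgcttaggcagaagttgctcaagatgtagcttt
Mmp13, the bone collagenase, held all 3 motifs, with first bases 35 (AP-1), 118 (RUNX) and 16 (TATA) bases before the start. Mmp3 held the AP-1 motif 46 bases and the TATA motif 7 bases before its start. Mmp12 and Mmp8 held none of these letters in the printed window. The window of a second annotated Mmp12 start, chr9:7347124-7347373, held the AP-1 motif 44 bases before that start. Among 32851 promoter windows of the same length, 6.75% held the AP-1 motif, 14.0% the RUNX motif and 12.4% the TATA motif. RefSeq windows were matched for 21 of the measured genes, and of the 16 that start at the gene's outermost start, 3 held the AP-1, 3 the RUNX and 4 the TATA motif. A match is a description of the letters, not evidence that a factor binds.

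Mmp13, Mmp9 and Mmp8 were called higher in bone than in both other tissues, while the gelatinase gene Mmp2 and the collagenase gene Mmp1a were not, at -0.57 and -0.96 (bone minus heart, log2). Mmp13 encodes collagenase 3, which cuts fibrillar collagen and is made by osteoblasts and hypertrophic chondrocytes. Its level in bone ran from 12.30 through a median of 13.29 to 13.57, against 5.83, 6.30 and 7.79 in heart and 5.13, 5.70 and 7.51 in white adipose tissue. No array of another tissue came near the bone arrays, and the highest value in fat was that of heterozygous array 2, on which the osteoblast and neutrophil markers were also high. Bone exceeded heart by 6.78 ± 0.29 (log2, SE; 110-fold, adjusted p = 8.9e-16) and white adipose tissue by 7.19 on the log2 scale (146-fold). A second Mmp13 probe differed by 4.16 between bone and heart, while the remaining, dimmer probe differed by -0.18 (log2).

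Mmp9 encodes gelatinase B, a product of osteoclasts and of neutrophil granules. It ran from 12.27 through 12.38 to 12.75 in bone, from 5.96 through 6.38 to 7.43 in heart and from 5.64 through 5.99 to 7.16 in white adipose tissue. The bone arrays were close to each other and lay apart from all others, and fat was again highest on heterozygous array 2. The difference was 5.93 ± 0.19 from heart (60.8-fold, adjusted p = 2.82e-18) and 6.31 on the log2 scale from white adipose tissue (79.3-fold).

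Mmp8, the neutrophil collagenase, was detected on 7 of 8 bone arrays and on 0 of 8 arrays of each other tissue. Bone levels ran from 4.77 through 5.73 to 6.44, which gives a level at least 1.15-fold that in heart and at least 1.56-fold that in white adipose tissue. Adam8, a membrane protease of leukocytes and osteoclasts, ran from 6.36 through 6.60 to 6.87 in bone. It was detected on 0 of 8 hearts, where the bound is at least 2.21-fold, and on 6 of 8 fat arrays, which bone exceeded by 1.01 on average (log2, adjusted p = 0.000116). Bone and fat overlapped for Adam8, since wild-type fat arrays 1 and 2 reached 6.87 and 6.89. Mmp16, a membrane-anchored MMP, had a bone median of 5.90 and was detected on no heart or fat array, with bounds of at least 1.22-fold and 1.66-fold.

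The neutrophil markers moved with these genes. All 10 were detected on every bone array, with summed levels (log2 of the summed intensities) of 17.08 to 17.26 in wild-type and 17.28 to 17.42 in heterozygous bone. The sums were 8.47 to 9.57 and 8.85 to 11.16 in wild-type and heterozygous heart, and 9.86 to 10.70 and 9.89 to 13.97 in wild-type and heterozygous fat. Of the 7 osteoclast markers, Calcr, Atp6v0d2 and Ocstamp were detected on no bone array, and the list's summed level was 12.35 to 12.99 in bone, 8.83 to 9.72 in heart and 9.07 to 10.56 in fat. The part of these cells in the bone levels of Mmp9, Mmp8 and Adam8 was not tested.

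Mmp14 encodes the membrane-anchored MMP that cuts collagen at the cell surface and activates proMmp2. It was the only measured gene called lower in heart than in both other tissues. Its median was 7.92 in heart (7.82 to 8.43), 10.60 in bone (10.46 to 10.83) and 9.93 in white adipose tissue (9.71 to 10.05), so that no tissue overlapped another. Bone exceeded heart by 2.65 ± 0.085 (6.29-fold, adjusted p = 4.51e-18) and fat exceeded heart by 1.92 (3.78-fold). Mmp2, the gelatinase A that Mmp14 activates, had medians of 11.98 in heart, 11.46 in bone and 11.56 in fat, and none of its differences reached 1 on the log2 scale.

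Heart was marked by a stromelysin and by ADAM and ADAMTS genes. Mmp3 encodes stromelysin 1, which cuts proteoglycans and activates other MMPs. It ran from 7.02 through 7.78 to 10.20 in heart, from 5.40 through 6.18 to 6.74 in bone and from 4.81 through 4.97 to 5.62 in white adipose tissue. Every heart array exceeded every array of the other tissues, with heterozygous heart 4 far above the rest. Heart exceeded bone by 1.92 ± 0.32 (3.78-fold, adjusted p = 8.23e-06). White adipose tissue was called lower than heart as well, but Mmp3 was detected there on the 4 wild-type arrays and on 0 of 4 heterozygous ones, so no fold is given. Both further Mmp3 probes gave the same directions.

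Adam19 encodes meltrin beta, a sheddase that mice need to form heart valves and septa. Its levels stepped down from heart (9.70, 10.03 and 10.18) through bone (8.40, 8.62 and 9.02) to white adipose tissue (7.38, 7.58 and 7.89) without overlap. Heart exceeded bone by 1.33 ± 0.083 (2.51-fold, adjusted p = 8.74e-13) and fat by 2.36 (5.14-fold). Adamts7, a protease of cartilage oligomeric matrix protein, had a heart median of 7.44 (6.79 to 7.74) against 5.13 in bone and 5.64 in fat. It exceeded bone 4.74-fold and fat 3.33-fold, again without overlap.

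Adamts19, whose human gene is linked to heart valve disease, ran from 6.17 through 6.59 to 7.77 in heart. It was detected on 0 of 8 bone arrays, which sets heart at least 3.29-fold above bone, and heart exceeded fat 2.61-fold. Adam11, a non-catalytic ADAM best known from the nervous system, was detected on 8 of 8 hearts and on no other array. Its heart level ran from 5.83 through 6.20 to 7.48, at least 2.56-fold above bone and at least 2.46-fold above fat. The highest Adam11 value was that of wild-type heart 4, the array that stood apart. Adamts15, another proteoglycan-cutting enzyme, was called 3.64-fold higher in heart than in bone, with means of 6.90 ± 0.42 and 5.04 ± 0.27 (SD, n = 8 arrays each).

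Of the secreted ADAMTS proteases, 4 were highest in white adipose tissue. Adamts5 encodes aggrecanase 2, which cuts aggrecan and versican. It ran from 9.74 through 10.78 to 11.43 in fat, from 8.02 through 8.11 to 8.46 in heart and from 6.32 through 7.25 to 7.64 in bone. The tissues did not overlap, and fat exceeded heart by 2.53 ± 0.15 (5.78-fold, adjusted p = 7.23e-13) and bone by 3.56 (11.8-fold). Adamts4, aggrecanase 1, had a fat median of 7.58 against 6.27 in heart and 6.34 in bone, and fat exceeded them 2.76-fold and 2.33-fold. Adamts1, which cuts versican, was detected on 8 of 8 fat and 8 of 8 bone arrays but on 0 of 8 hearts. Its fat median of 6.72 lay 2.79-fold above bone by the means and at least 2.36-fold above heart. Adamts16 was detected on 8 of 8 fat arrays and on no heart or bone array, with bounds of at least 1.17-fold and 1.65-fold.

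**Figure D2:**
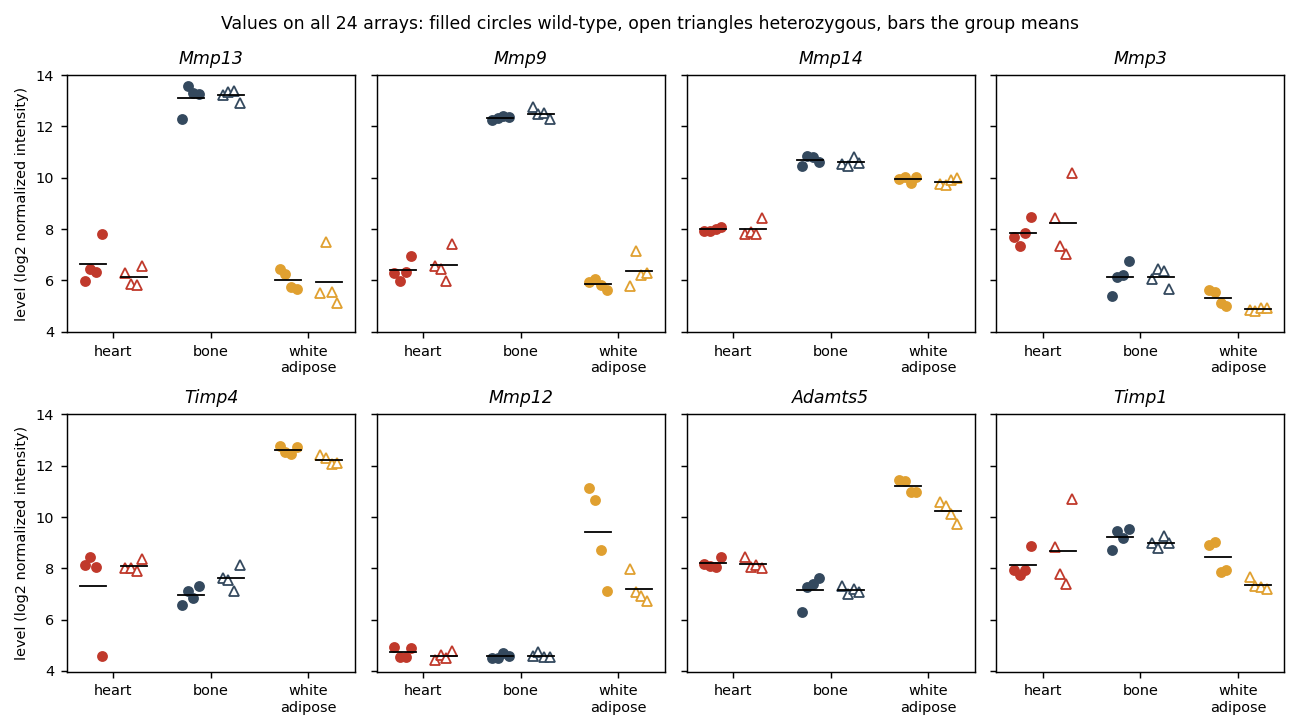
Levels of 8 genes on all 24 arrays (log2 normalized intensity, 24 arrays normalized together), with filled circles for wild-type, open triangles for heterozygous arrays and a bar at each group mean. Mmp13 and Mmp9 are high on every bone array, Timp4 and Adamts5 on every fat array, Mmp12 varies from 6.74 to 11.15 within fat, and Timp4 drops to 4.57 on 1 wild-type heart.

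Mmp12 encodes macrophage elastase, which cuts elastin. It was detected on all 8 fat arrays and on no heart or bone array, and its fat levels spread from 6.74 through 7.54 to 11.15. Fat exceeded heart at least 7.06-fold and bone at least 9.98-fold. The macrophage markers, 9 of 11 of which are on the array, were detected in bone too: all 9 were detected on every bone array, with summed levels of 13.95 to 14.77, beside 13.36 to 14.94 in fat and 11.62 to 13.07 in heart.

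Adam15, a membrane ADAM of endothelium and other cells, and Adam23, a non-catalytic ADAM that binds integrins, were also highest in fat. Adam15 had medians of 11.53 in fat, 10.01 in heart and 8.87 in bone, with fat 2.94-fold above heart and 5.98-fold above bone. A second Adam15 probe gave -0.24 for fat minus heart (log2), opposite to the 1.56 of the brighter probe. Adam23 had medians of 9.44, 7.86 and 6.43, and fat exceeded heart 2.92-fold and bone 7.91-fold. Neither gene's tissues overlapped on the brighter probe. Mmp11, a stromelysin that cuts collagen VI, Mmp23, a membrane-tethered MMP, and Adam9, a widely expressed sheddase, were called higher in fat than in bone, 2.74-fold, 2.28-fold and 2.14-fold.

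The 4 inhibitor genes differed among themselves. Timp4, which in mice is known from heart, muscle and fat, ran from 12.09 through 12.44 to 12.79 in white adipose tissue, from 6.56 through 7.22 to 8.12 in bone and from 4.57 through 8.03 to 8.43 in heart. The low heart value came from wild-type heart 4, and without it the 7 remaining hearts had a mean of 8.13 ± 0.20 (SD). Fat exceeded heart by 4.74 ± 0.36 (26.8-fold, adjusted p = 4.32e-11) and bone by 5.14 (35.3-fold), and no fat array overlapped any other. Timp2, which inhibits MMPs and helps Mmp14 to activate proMmp2, had means of 13.06 ± 0.17 in fat, 11.68 ± 0.54 in heart and 11.08 ± 0.11 in bone (SD, n = 8 arrays each). Fat exceeded heart 2.60-fold and bone 3.94-fold.

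Timp1, an inducible soluble inhibitor, was called lower in fat than in bone only (by 1.22 ± 0.33, adjusted p = 0.00192), and these tissues overlapped. Its means were 8.40 ± 1.07 in heart, 9.11 ± 0.30 in bone and 7.89 ± 0.71 in fat. Heterozygous heart 4, at 10.69, held the highest Timp1 value of all 24 arrays, as it did for Mmp3 among hearts. Timp3, which binds to the matrix and inhibits ADAM and ADAMTS enzymes as well as MMPs, had means of 11.46, 11.22 and 11.49 in heart, bone and fat, within 0.27 of each other. Its other probe was also detected in all 3 tissues and gave another pattern, with bone 1.14 and fat 1.94 above heart (log2), so its tissue levels depend on the probe.

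Among the measured genes not called highest anywhere were Adam17, the TNF-converting sheddase that Timp3 inhibits, with medians of 9.55 in heart, 9.11 in bone and 8.90 in fat, and Adam12, meltrin alpha, detected on all arrays of bone and fat and on none of heart. Adam22, Adam33, Adamts8, Adamts13, Mmp17, Mmp19, Mmp1a and Mmp28 were called in none of the 3 comparisons. Their means lay between 4.84 and 6.87 in every tissue.

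Genes that work with these families were followed in 4 further lists. Of other matrix proteases, 4 of 12 genes detected in both tissues were called higher and 3 lower in bone than in heart. Of all such genes, 16% and 24.7% were called in these directions. Ctsk, the collagen-cutting cathepsin of osteoclasts, was higher in bone by 4.07 on the log2 scale (16.8-fold), and Htra3, a serine protease, stood at -3.23 (bone minus heart). In fat against bone the same list had 4 higher and 4 lower of 13, beside 19.3% higher and 15.4% lower of all genes detected in both. Among the called genes were Elane, the neutrophil elastase, at -7.04 and Htra3 at 3.95 (fat minus bone). With so few genes measured, no list is read as standing apart from these shares. Of the activation and control genes, 2 of 10 were higher and 4 lower in bone than in heart, beside the same 16% and 24.7%. Tspan33, one of the tetraspanins that steer Adam10, was higher by 5.02 in bone, while Furin, the convertase that activates membrane MMPs and ADAMs, was lower, at -1.16 (bone minus heart). Of the plasminogen system, 2 of 3 genes were called lower in fat than in bone, beside 15.4% of all genes detected in both. They were Plaur (the urokinase receptor) at -2.00 and Serpinb2 (an inhibitor of urokinase) at -2.14 (fat minus bone). Of related metalloproteases, 3 of 7 were higher in fat than in bone, beside 19.3%, led by Ece1, which makes endothelin, at 4.04. At limma's adjusted p under 0.05 none of these lists had a gene called between genotypes in any tissue.

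No measured gene of the 4 families was called between heterozygous and wild-type mice in any tissue, with each tissue normalized on its own and limma's adjusted p over all its genes under 0.05. Of all genes tested, 0% were called in heart, 0.0741% in bone and 0.0108% in fat. At an unadjusted p under 0.05 there were 0 of 27 genes in heart, 3 of 32 in bone and 11 of 31 in fat, beside 5.54%, 18.5% and 29.5% of all genes. At an adjusted p under 0.10 there were 0 in heart, 0 in bone and 9 in fat, beside 0%, 4.18% and 15.8% of all genes. Groups that did not overlap were found for 1 of 27 genes in heart (Adamts7, lower) and 1 of 32 in bone (Mmp23, lower), where 8% and 9.89% of all genes did not overlap, 2.88% and 4.3% of them higher and 5.12% and 5.59% lower. In fat 9 of 31 did not overlap, beside 16.6% of all genes. Timp3, Mmp23 and Mmp1a were higher (9.05% of all genes) and Adamts5, Timp1, Timp4, Mmp3, Adam17 and Adam22 lower (7.55%). All genotype differences below are heterozygous minus wild-type, on the log2 scale, over 4 arrays each, and since none passed the test they are given as values.

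**Figure D3:**
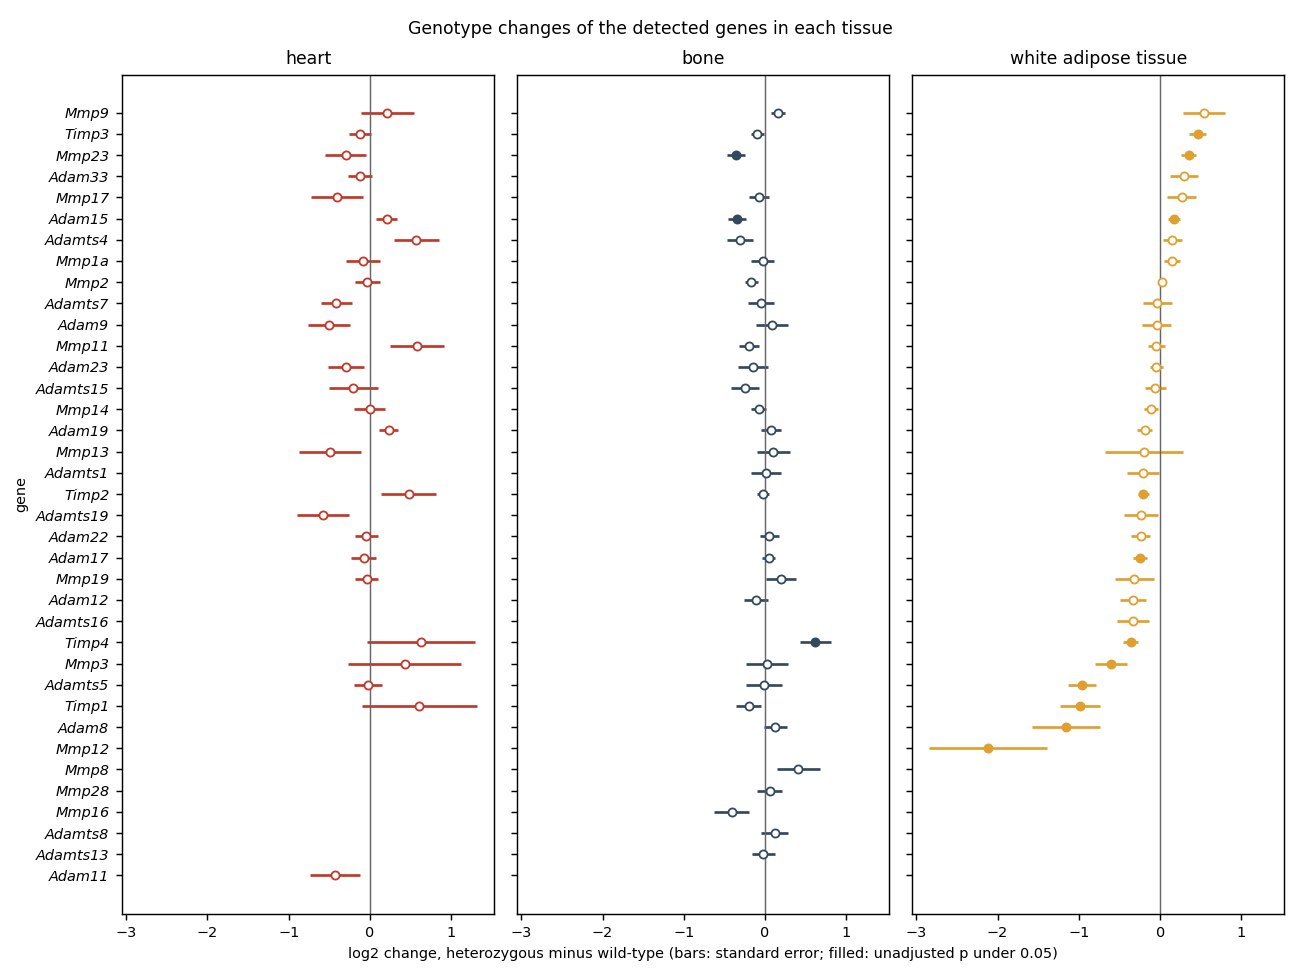
Log2 difference, heterozygous minus wild-type, of each gene measured in heart (27), bone (32) and white adipose tissue (31), with standard errors; filled points have an unadjusted p under 0.05. Heart has no filled point, bone has 3 and fat has 11, from Mmp12 at -2.12 to Timp3 at 0.46.

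In heart the smallest adjusted p was 0.608. Adamts7 stood at 6.37 ± 0.31 in heterozygous and 6.79 ± 0.14 in wild-type hearts (SD, n = 4), a difference of -0.41 ± 0.19 (SE, limma's adjusted p = 0.608). Timp4 read 7.40, 7.73, 7.28 and 4.37 in wild-type and 7.27, 7.25, 7.12 and 7.66 in heterozygous hearts. Its difference of 0.63 ± 0.67 turned to -0.14 without wild-type heart 4, the single low value. Timp1 read 7.15, 6.94, 7.17 and 8.20 in wild-type and 8.19, 7.01, 6.56 and 10.15 in heterozygous hearts, and its difference of 0.61 turned to -0.12 without heterozygous heart 4. Mmp3 was likewise highest on that array, at 9.63 against 6.16 to 7.74 on the other heterozygous hearts. Marker lists were high there too, in summed log2 level: 11.16 for the neutrophil list against 8.85 to 9.78 on the other heterozygous hearts, 13.07 against 12.33 to 12.51 for the macrophage list and 14.21 against 13.78 to 14.01 for the fibroblast list. All 8 fibroblast markers were detected on every heterozygous heart, as were 8 of 9 macrophage markers and 2 of 10 neutrophil markers, with Mpo, Ms4a3 and Prtn3 detected on none. Wild-type hearts had summed macrophage levels of 11.62 to 12.27, below every heterozygous heart, while neutrophil and fibroblast sums overlapped between genotypes. The part of these marker lists in the heart differences, Timp1 and Mmp3 included, was not tested.

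In bone the summed level of the 9 macrophage markers was 13.95 to 14.64 in wild-type and 14.68 to 14.77 in heterozygous arrays, and that of the 10 neutrophil markers 17.08 to 17.26 and 17.28 to 17.42, without overlap in either list. All of these markers were detected on every bone array, and their part in the bone differences was not tested. In bone 3 genes had an unadjusted p under 0.05, and Mmp23 was lowest in p. It read 7.75, 7.84, 7.66 and 7.80 in wild-type and 7.40, 7.21, 7.43 and 7.57 in heterozygous bone, without overlap. The difference was -0.36 ± 0.11 (limma's adjusted p = 0.109). Adam15 differed by -0.35 ± 0.11 (adjusted p = 0.121), with 9.43, 9.51, 8.99 and 9.34 in wild-type and 9.04, 8.92, 8.92 and 9.01 in heterozygous bone, where wild-type array 3 lay among the heterozygous values. The second Adam15 probe differed by -0.14 in bone. In heart the signs were opposite, at 0.20 on the brighter probe and -0.46 on the second. Timp4 read 6.79, 7.34, 7.07 and 7.53 in wild-type and 7.82, 7.76, 7.33 and 8.29 in heterozygous bone, a difference of 0.62 ± 0.20 (adjusted p = 0.125) with overlap. Without the pair of arrays under 1 mouse number 2 genes were called, Adam15 and Mmp23, and array weights called the same 2. How many of all bone genes these settings called is not given here, so the 2 calls are not read as particular to these genes. For the genes highest in bone, the difference was 0.10 ± 0.20 in Mmp13 and 0.16 ± 0.085 in Mmp9 (limma's adjusted p = 0.834 and 0.338).

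White adipose tissue held the largest number of low p-values, of which 3 were positive and 8 negative differences. The median difference was -0.19 over the 31 genes and 0.033 over all genes tested. Adamts5, aggrecanase 2, had the smallest p. It read 11.87, 11.84, 11.43 and 11.46 in wild-type and 11.04, 10.89, 10.60 and 10.22 in heterozygous fat. Every heterozygous value lay below every wild-type value, and the difference was -0.96 ± 0.17 (1.95-fold lower, limma's adjusted p = 0.061).

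All 4 inhibitor genes were among the 11. Timp1 read 9.41, 9.50, 8.43 and 8.52 in wild-type and 8.26, 7.92, 7.92 and 7.82 in heterozygous fat, with wild-type arrays 1 and 2 high and no overlap. Its difference was -0.98 ± 0.24 (adjusted p = 0.0693), and that of its other probe was -1.09. Timp4 read 13.11, 12.86, 12.80 and 13.07 in wild-type and 12.77, 12.68, 12.46 and 12.47 in heterozygous fat, a difference of -0.36 ± 0.095 without overlap (adjusted p = 0.0707). Timp2 read 13.50, 13.48, 13.33 and 13.50 in wild-type and 13.38, 13.26, 13.09 and 13.25 in heterozygous fat, a difference of -0.21 ± 0.069 with overlap (adjusted p = 0.092).

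The Timp3 difference had the opposite sign. It read 11.45, 11.58, 11.85 and 11.87 in wild-type and 12.14, 11.97, 12.33 and 12.16 in heterozygous fat, all heterozygous values being higher. The difference was 0.46 ± 0.11 (adjusted p = 0.0683) on the brighter probe and 0.18 on the other. Mmp23 read 8.75, 8.93, 8.84 and 9.15 in wild-type and 9.26, 9.31, 9.20 and 9.31 in heterozygous fat, again without overlap, with a difference of 0.35 ± 0.094 (adjusted p = 0.0707). Adam15 differed by 0.17 and Mmp9 by 0.54, with limma's adjusted p of 0.165 and 0.198. The second Adam15 probe differed by 0.39. The Mmp9 values of heterozygous fat were 6.37, 7.80, 6.86 and 6.95. The high one lay on array 2, on which the neutrophil, osteoblast and skeletal muscle markers were also high.

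The 2 wild-type fat arrays with the highest macrophage markers carried the highest levels of several proteases. Mmp12 read 11.61, 11.14, 9.21 and 7.74 in wild-type and 8.56, 7.71, 7.57 and 7.40 in heterozygous fat. Wild-type arrays 1 and 2 were far above the rest and array 4 lay within the heterozygous range, and the difference was -2.12 ± 0.73 (4.34-fold lower, adjusted p = 0.0987). Adam8 read 7.52, 7.53, 5.88 and 5.72 in wild-type and 5.21, 5.71, 5.75 and 5.35 in heterozygous fat, a difference of -1.16 ± 0.41 (adjusted p = 0.107) with overlap. Mmp3 read 6.18, 6.08, 5.51 and 5.35 in wild-type fat and was detected on 0 of 4 heterozygous arrays, so wild-type fat was at least 1.20-fold above heterozygous fat (limma's adjusted p = 0.091). Since Mmp3 passed the filter through the 4 wild-type arrays alone, its separation is no support for a difference. Adam17 differed by -0.25 ± 0.083 without overlap (adjusted p = 0.0947).

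The mean level of the 9 measured macrophage markers was 10.51, 10.29, 9.70 and 9.83 in wild-type and 9.55, 9.56, 9.47 and 9.33 in heterozygous fat, with the 24 arrays normalized together. All 9 were detected on every fat array, and their summed level was 13.91 to 14.94 in wild-type and 13.36 to 13.79 in heterozygous fat. The 8 fibroblast markers had mean levels of 10.69 to 11.17 and 10.53 to 10.64 in these groups, and the adipocyte markers 11.74 to 12.02 and 11.94 to 12.04. The part of macrophages or fibroblasts in these differences was not tested. With array brightness as a covariate 0 of the 31 genes were called, but brightness and genotype cannot be told apart here. A block by replicate number, which pairs different animals here, called 7 genes (Adamts5, Mmp12, Mmp23, Timp1, Timp2, Timp3 and Timp4). Array weights called 9, and leaving out wild-type array 3 or 4 called 4 and 7. The shares of all genes called under these settings are not given here, so these counts are not read as particular to these genes.

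**Figure D4:**
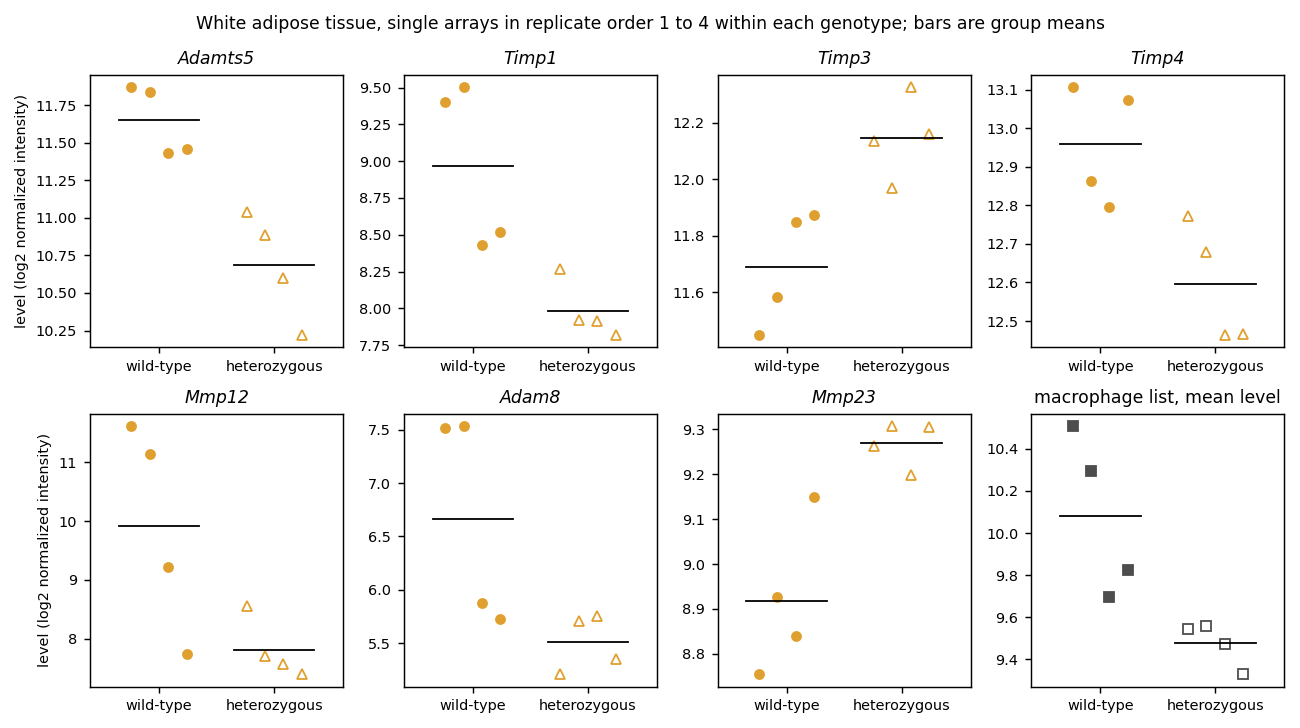
Levels (log2 normalized intensity, white adipose arrays normalized on their own) of 7 genes on each fat array, and the mean level of 9 macrophage markers, with a bar at each group mean. Adamts5, Timp1, Timp4 and the macrophage markers are lower and Timp3 and Mmp23 higher on every heterozygous array than on every wild-type array; Mmp12 and Adam8 overlap and are highest on wild-type arrays 1 and 2.

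Whether the genotype difference itself varied between tissues was tested as an interaction in the fit over 24 arrays, in which the comparisons share arrays. Those with heart also set different animals against each other. Timp3 was the only measured gene called, in 2 of the 3 comparisons. Its genotype difference in this fit was -0.10 in bone, -0.11 in heart and 0.52 in white adipose tissue. The bone difference minus the fat difference was -0.62 ± 0.16 (limma's adjusted p = 0.0413), 1 of 27 genes called beside 3.25% of all genes. The heart difference minus the fat difference was -0.62 ± 0.16 (adjusted p = 0.0361), 1 of 26 genes called beside 6.17% of all genes. Between heart and bone 0 of 24 were called, beside 0.0253% of all genes, with 3 at an unadjusted p under 0.05. With each tissue normalized on its own, Timp3 read 11.14, 11.49, 11.32 and 11.32 in wild-type and 11.22, 11.28, 11.26 and 11.12 in heterozygous bone, and 11.05, 10.96, 10.83 and 11.35 in wild-type and 10.88, 10.89, 10.75 and 11.18 in heterozygous heart, overlapping in both tissues. Scaling to the array medians ended both Timp3 calls (-0.52 and -0.45) and left Adamts5 as the 1 gene called between heart and fat, and leaving out single arrays ended the first with 13 and the second with 6 of the 24 arrays. Without wild-type heart 4, 5 genes were called between bone and fat (Adam15, Adamts5, Mmp23, Timp3 and Timp4) and 4 between heart and fat (Adam19, Adamts4, Adamts5 and Timp3). The shares of all genes above belong to the main fit. Those under the changed settings are not given, so these counts are not read as particular to these genes.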

How the data were processed

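Transcripts were measured on Illumina bead arrays in 24 samples. The authors deposited raw probe intensities and, in a second table, intensities after background subtraction and normalization, together with the detection p-value of each probe. The submitters' processing notes name GenomeStudio 2011.1. Which table is raw was read from the values, and how the authors scaled the other is not stated. The deposited detection p-values set the filter (under 0.05 on at least 4 of 8 arrays).

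Raw intensities were corrected with normexp from the detection p-values, raised by an offset of 16, quantile-normalized and log2-transformed with limma 3.58.1 (R 4.3.3). Genotypes were compared within each tissue (heart 8495 genes, bone 9442, white adipose tissue 9266), tissues and interactions in a model of 6 groups over all arrays, 2-sided, with p-values adjusted over all genes. A gene detected on no array of a tissue got a bound from the lowest detected level of each array. Probes were named through the platform annotation (23978 of 25697 with a symbol), and the number of arrays limits the precision. Where nothing but the mouse numbers separates samples, p-values measure the spread between these samples.

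Members and lists were chosen with earlier results of these data known. All measured genes could be named. Values on single arrays were given for the Timp genes, up to 6 genes per tissue with the largest differences from both other tissues, and the 4 smallest p-values per direction and tissue. The interaction rule took called genes. Genes named from the related lists were chosen after their values were seen.

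Alternatives comprised an offset of 50, uncorrected background, median scaling, cyclic loess, other filters and thresholds, the authors' intensities, array weights, brightness as a covariate, blocks, wild-type arrays alone, and each array left out. Leaving out both arrays that stand apart was chosen after seeing the data. Simulated data were used to test the main genotype fit in each tissue, bone against heart, and the interaction of bone and white adipose tissue. The other comparisons and the alternatives were not simulated. Bone and white adipose arrays of 1 animal did not deviate together (correlations -0.23 to 0.05, consensus correlation 0.0127 with statmod 1.5.0).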

Additional observations from a re-analysis of the deposited data

Results flagged for a closer look

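In groups of 4 arrays, a single value far from the other three stood out for 6 of 108 gene and group pairs, where chance gives about 1 in 20. Of these, 3 lie on wild-type heart 4, the array with the fewest detected probes: Adam11 at 6.67, with the others no higher than 5.46, Mmp11 at 4.38, with the others at 5.72 or above, and Timp4 at 4.37, with the others at 7.28 or above. In wild-type bone, Adamts1 read 5.91 on array 4, with the others no higher than 5.19, and Mmp8 read 4.84 on array 2, with the others at 5.86 or above. In wild-type white adipose tissue, Timp2 read 13.3 on array 3, close below the others at 13.5.

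The genotype difference of Timp3 was called different between tissues, by -0.62 for bone minus white adipose tissue and by -0.62 for heart minus white adipose tissue (log2). It was 1 of 27 and 1 of 26 genes called, shares near or below those of all genes. Leaving out single arrays ended the calls with 13 and 6 of the 24 arrays, and scaling to the array medians ended both. On its second probe the genotype difference was 0.18 in white adipose tissue, 0.030 in bone and -0.028 in heart.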

How the results depend on the processing

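All 52 calls between tissues kept their direction under every scaling, background setting and array set compared, and the calls kept numbered 22 without background correction, 32 with an offset of 50, 44 with median scaling, 48 with cyclic loess and 43 on wild-type arrays alone. Calls of higher and lower in bone against heart (6 and 11) became 3 and 2 at a log2 difference of at least 2, 3 and 2 without background correction and 3 and 7 with an offset of 50. Lower calls became 7 with median scaling and higher calls 3 among genes detected in every tissue. For white adipose tissue against heart (10 and 5) these were 4 and 2 at a difference of 2, with 2 lower without background correction, 3 with an offset of 50 and 3 among genes detected everywhere. For white adipose tissue against bone (12 and 8) they were 5 and 2, 6 and 2, and 7 and 3, with 5 lower among genes detected everywhere and 4 on wild-type arrays alone. Leaving out single arrays gave 6 to 7 and 9 to 11, 10 to 11 and 5 to 6, and 11 to 12 and 6 to 8. Shares of all genes called under the changed settings are not set beside these counts. Whether the changes are particular to these genes is therefore not shown. Uncalled differences turned sign for white adipose tissue minus heart in Mmp13 (0.14), Mmp9 (0.22) and Mmp16 (-0.48) with median scaling and Mmp16 (-0.37) with cyclic loess, and with single arrays left out (range -0.028 to 0.092). Adam11, white adipose tissue minus bone, turned to -0.036 with median scaling and -0.016 with loess.

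Genotype calls in bone (0) became 2 with array weights and 2 without the pair of arrays under 1 mouse number, and 0 to 1 with single arrays left out. In white adipose tissue (0) they became 9 at an adjusted p under 0.10, 1 (Adamts5) with detection at 0.01 on all arrays, 9 with array weights, 7 with a replicate block and 0 to 7 with single arrays left out. Heart stayed at 0 throughout. Replicate numbers pair different animals here: in white adipose tissue same-numbered deviations correlated by 0.37, 0.12, -0.04 and 0.40, and 3 of 4 correlated best with their own number. The block changed no count in heart or bone. Timp4 in heart turned to -0.21 with array weights and Timp2 in bone to 0.0049 without the shared-number arrays. With single arrays left out, Timp4 in heart ranged from -0.14 to 0.97, Timp1 in heart from -0.12 to 1.09 and Timp2 in bone from -0.076 to 0.031. Interaction calls for bone and white adipose tissue (1) became 3 without background correction, 0 with median scaling, 2 with the animal as a replicate block, 5 without both arrays that stand apart and 0 to 5 with single arrays left out. Those for heart and white adipose tissue (1) became 2, 1, 1 and 3 under these settings and 0 to 4, and those for heart and bone (0) became 1 without both arrays and 0 to 1. Apart from the adjusted p under 0.10, shares of all genes under the changed settings are not given for these genotype and interaction counts either. The causes were not tested. Levels near the background, such as those of Mmp8, Mmp16, Adam11 and Adamts16, limit these genes to bounds.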
